A study of Caenorhabditis elegans with 7 samples.

Results

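The mevalonate and ubiquinone synthesis genes of *Caenorhabditis elegans* were followed in whole young adults fed with the cocoa peptide 13L. The set holds 10 of the 17118 genes named on the array, picked by pathway. The rule uses no measured value, but the choice was made with earlier results of these data known. The set has 3 genes for steps of the mevalonate pathway (*hmgs-1*, *hmgr-1* and *fdps-1*). The other 7 are for ubiquinone synthesis (*coq-1*, *coq-2*, *coq-3*, *coq-4*, *coq-6*, *coq-8* and *clk-1*). All 11 probe sets that name only these genes were taken, and 9 of the genes have 1 probe set and *coq-1* has 2. A probe set is a group of short probes read together, and those of *fdps-1*, *coq-3* and *coq-4* carry the suffix _s_at, given to probes that can match more than a single transcript. The worms were of the wild-type strain N2. NGM, the agar medium used as the control diet, was compared with NGM holding 1 µg/mL of 13L, given from the egg for 3 days at 20°C. The 4 NGM arrays (SL1, SL5, SL9 and SL69) and the 3 arrays of 13L (SL4, SL8 and SL12) are called by their titles. Any further array of 13L is not analysed here. The methods of the study call the replicates biological, but no source says which cultures were separate, so the p-values measure the spread between these samples.

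The mevalonate pathway turns acetyl-CoA into isoprenoid units. HMG-CoA synthase and HMG-CoA reductase make mevalonate, and farnesyl diphosphate synthase joins the isoprenoid units that follow from it. Nematodes do not make sterols, so in the worm the pathway serves the prenyl groups of proteins, dolichol and the side chain of ubiquinone. Ubiquinone carries electrons in the inner mitochondrial membrane. Its synthesis begins with the side chain (*coq-1*), which *coq-2* joins to an aromatic ring, and further enzymes then modify the ring. Worms also take up ubiquinone from their bacterial food, and *clk-1* mutants, which cannot finish their own, are known for slow development and long life.

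On the log2 scale of the deposited values, array medians over the 22548 probe sets tested lay between 1.01 and 1.06. Each member probe set had a mean above that of the brightest yeast control (0.74), whose target the worm lacks. The arrays differed in the level of sperm transcripts. The median log2 value of 29 sperm markers was 3.03 on SL1, 7.33 on SL5, 7.21 on SL9 and 5.51 on SL69 among the NGM arrays, and 4.23 on SL4, 6.87 on SL8 and 7.69 on SL12 among those of 13L. SL1, SL4 and SL69 thus stood below the other arrays, and the diets overlapped. Oocyte markers (10 genes) had medians of 7.87 to 8.36 over the 7 arrays and intestine markers (9 genes) medians of 7.79 to 8.31, so transcripts of the adult germline and gut were plentiful on every array. Embryo markers (9 genes) had medians of 0.62 to 1.09, near the array medians. Neuron markers (11 genes) had a lower median on each array of 13L (3.43 to 3.57) than on each NGM array (3.63 to 3.79). All 11 neuron markers had a negative difference (median -0.24), and 2 were lower at an unadjusted p under 0.05, where 2.73% of all genes were. Of the 29 sperm markers 27 had a positive difference (median 0.56), and none passed that threshold. The part of the neuron markers in the values below was not tested. With the sperm marker level as a covariate, a choice made after the data were seen, no member had an unadjusted p under 0.05. In whole worms, fewer cells of a type and less RNA per cell cannot be told apart.

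Results showed a value slightly above the NGM mean for most of the members, but every 95% interval of the difference held 0. In 13L, 9 of the 10 genes had a positive difference, all 3 of the mevalonate pathway and 6 of the 7 for ubiquinone. Over all genes 50.3% had one. The 10 genes were read on the same arrays, so their signs are not separate results. On SL1, 1 of the 10 lay above its NGM mean, against 8 on SL5. Without SL1, the differences of *hmgs-1* (-0.15), *coq-1* (-0.04) and *clk-1* (-0.03) turned negative. None of the 11 probe sets passed an adjusted p under 0.05 from limma, and 0% of all probe sets tested did (lowest adjusted p among the members 0.944). None had an unadjusted p under 0.05 either, which 5.11% of all probe sets had. The diets overlapped on each of the 11, and 6.08% of all probe sets had no overlap.

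**Figure D1:**
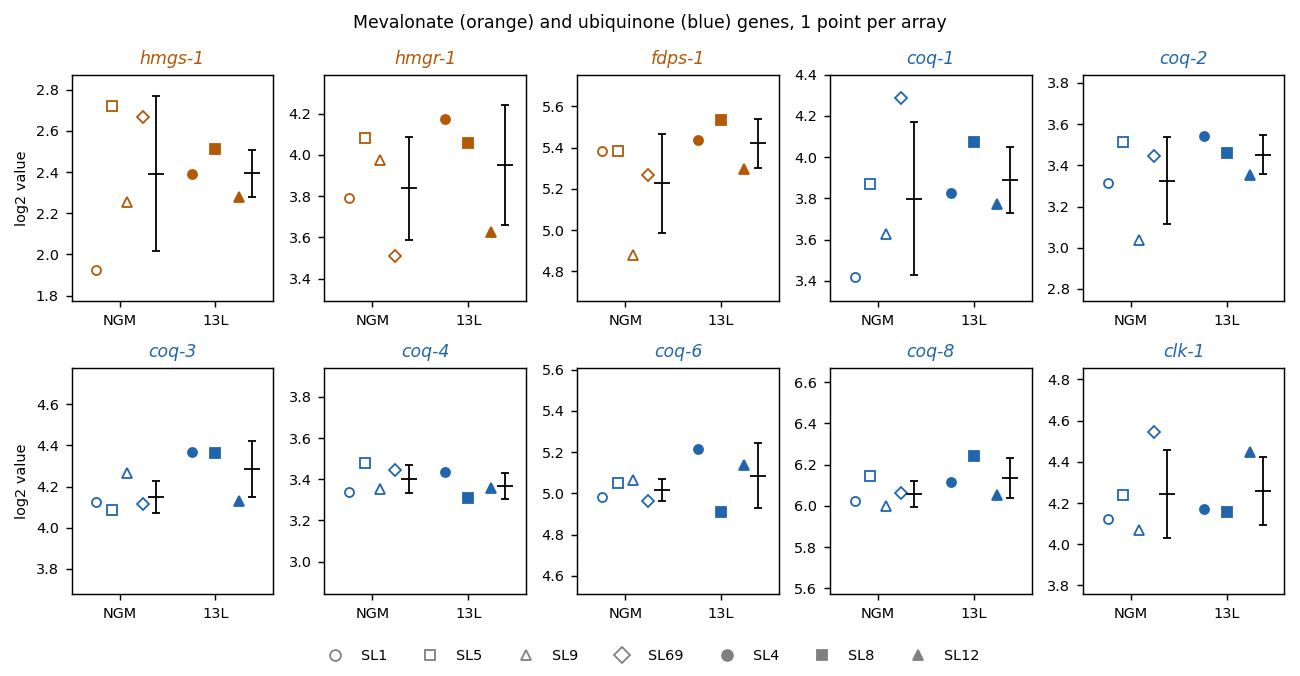
Log2 value of each member gene (y axis, the same span of log2 units in every panel) on the 4 NGM arrays (open) and the 3 arrays of 13L (filled), with the mean and SD in black beside each group. Marker shape joins arrays of the same run of title numbers. The diets overlap in all 10 panels, and *hmgs-1* and *coq-1* spread most among the NGM arrays.

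The gene *hmgs-1* (F25B4.6, chromosome V, probe set 192393_at) encodes HMG-CoA synthase, the enzyme before the committed step. Its log2 values were 1.92, 2.72, 2.25 and 2.67 on SL1, SL5, SL9 and SL69, and 2.39, 2.51 and 2.28 on SL4, SL8 and SL12. All 3 arrays of 13L lay inside the NGM range, whose lowest end was SL1. The NGM mean was 2.39 ± 0.38 (SD, n = 4), and that of 13L 2.39 ± 0.11 (SD, n = 3). By limma the difference was 0.0015 with a 95% interval of -0.42 to 0.43 (adjusted p = 0.999). Its sign turned to -0.15 without SL1, -0.04 without SL9 and -0.06 without SL8.

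The gene *hmgr-1* (F08F8.2, chromosome III, probe set 192677_at) encodes HMG-CoA reductase, the rate-limiting enzyme of the pathway and the target of statins in mammals. On the log2 scale it had 3.79, 4.08, 3.97 and 3.51 on SL1, SL5, SL9 and SL69, and 4.17, 4.06 and 3.62 on SL4, SL8 and SL12. The lowest array of each diet, SL69 and SL12, lay well under the others of its diet. The difference was 0.11 (standard error 0.17, 95% interval -0.28 to 0.50, adjusted p = 0.971 from limma). Without SL4 the difference was 0.0020, and without SL1 and SL69 together it was -0.08.

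The gene *fdps-1* (R06C1.2, chromosome I, probe set 173889_s_at) encodes farnesyl diphosphate synthase, which makes the precursor shared by prenylated proteins, dolichol and ubiquinone. Its log2 values were 5.38, 5.38, 4.88 and 5.27 on SL1, SL5, SL9 and SL69, and 5.44, 5.53 and 5.30 on SL4, SL8 and SL12. Of the NGM arrays, SL9 was the lowest by far. SL4 and SL8 lay above all NGM arrays and SL12 among them. The difference of 0.19 was the largest among the 10 genes, and corresponded to 1.14 times the NGM level (95% interval of the difference -0.12 to 0.51, unadjusted p = 0.192, adjusted p = 0.944 from limma). An exact permutation test over the arrays gave a two-sided p of 0.286, where the smallest p the design allows is 0.0286. Without SL9 the difference was 0.08.

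**Figure D2:**
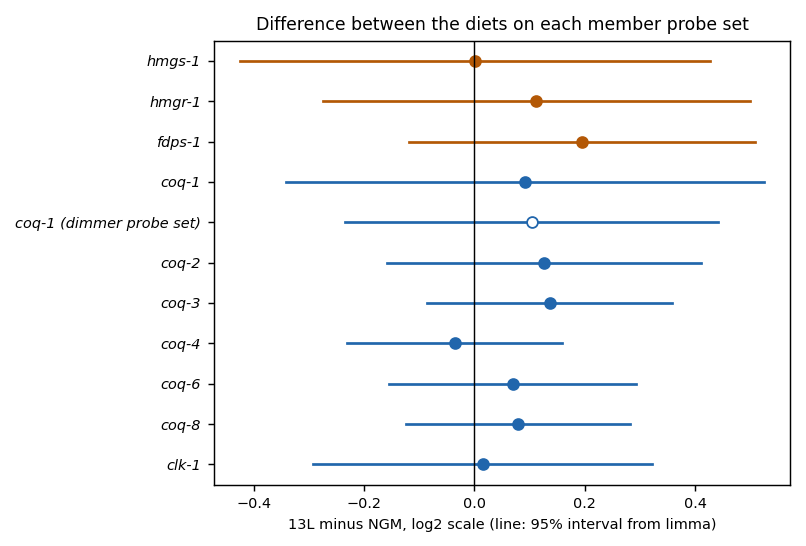
Difference between 13L and NGM on each of the 11 member probe sets (x axis, log2 scale), as points with 95% intervals from limma. Orange marks mevalonate genes, blue ubiquinone genes, and the open point the dimmer probe set of *coq-1*. Every interval holds 0, and the highest upper limit is 0.53.

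The first ubiquinone gene, *coq-1* (C24A11.9, chromosome I), encodes the polyprenyl diphosphate synthase that builds the side chain. On its brighter probe set (192843_at) the log2 values were 3.42, 3.87, 3.63 and 4.28 on SL1, SL5, SL9 and SL69, and 3.83, 4.07 and 3.77 on SL4, SL8 and SL12. The NGM arrays held both the lowest value, on SL1, and the highest, on SL69. The difference was 0.09 (95% interval -0.34 to 0.53, adjusted p = 0.976 from limma). It was 0.25 without SL69 and -0.04 without SL1. On the dimmer probe set (183541_at) the difference was 0.10, yet there SL12 was the highest array at 1.53 and SL5 the lowest at 0.94. Both probe sets therefore gave a like mean difference from different orders of the arrays. The dimmer had a mean of 1.19 over all arrays, near the array medians, so the likeness says little.

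The gene *coq-2* (F57B9.4, chromosome III, probe set 193070_at) encodes the transferase that joins side chain and ring. The log2 values of the arrays were 3.31, 3.51, 3.04 and 3.44 on SL1, SL5, SL9 and SL69, and 3.54, 3.46 and 3.35 on SL4, SL8 and SL12. As for *fdps-1*, SL9 was the lowest array, and without it the difference of 0.13 was 0.03 (adjusted p with all arrays 0.953 from limma).

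Of the ring-modifying genes, *coq-3* (Y57G11C.11, chromosome IV, probe set 193663_s_at) encodes an O-methyltransferase. Its log2 values were 4.13, 4.09, 4.27 and 4.12 on SL1, SL5, SL9 and SL69, and 4.37, 4.36 and 4.13 on SL4, SL8 and SL12. Here SL4 and SL8 lay above all NGM arrays, while SL12 lay among them. The difference of 0.14 was the largest of the ubiquinone genes (95% interval -0.09 to 0.36, unadjusted p = 0.199, adjusted p = 0.944 from limma). It was 0.21 without SL12.

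The gene *coq-6* (K07B1.2, chromosome V, probe set 187208_at) encodes a flavin-dependent monooxygenase that hydroxylates the ring. It had log2 values of 4.98, 5.05, 5.07 and 4.96 on SL1, SL5, SL9 and SL69, and of 5.21, 4.91 and 5.14 on SL4, SL8 and SL12. The NGM arrays were close together, and the arrays of 13L lay on both sides of them. The difference was 0.07 (95% interval -0.15 to 0.29, adjusted p = 0.968 from limma), and it was 0.0058 without SL4 and 0.16 without SL8.

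The hydroxylase gene *clk-1* (ZC395.2, chromosome III, probe set 188417_at) encodes the enzyme that makes the last intermediate before the final methylation. By array, its log2 values were 4.12, 4.24, 4.07 and 4.55 on SL1, SL5, SL9 and SL69, and 4.17, 4.16 and 4.45 on SL4, SL8 and SL12. One array of each diet, SL69 and SL12, stood above the rest. The difference was 0.01 (95% interval -0.29 to 0.32, adjusted p = 0.994 from limma). Its sign turned without SL1 (-0.03), SL9 (-0.04) or SL12 (-0.08), and without SL69 it was 0.12.

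The products of the other two genes serve the complex in which the ring enzymes work, as known from yeast and mammals. The gene *coq-8* (C35D10.4, chromosome III, probe set 187629_at) encodes an atypical kinase needed for the complex. Its log2 values were 6.02, 6.14, 5.999 and 6.06 on SL1, SL5, SL9 and SL69, and 6.11, 6.24 and 6.05 on SL4, SL8 and SL12. The values of both diets ran into each other, with SL8 the highest. The difference was 0.08 (95% interval -0.12 to 0.28, adjusted p = 0.960 from limma).

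The gene *coq-4* (T03F1.2, chromosome I, probe set 187381_s_at), whose product helps to hold the complex together, was the member with a negative difference. On the log2 scale it had 3.34, 3.48, 3.35 and 3.44 on SL1, SL5, SL9 and SL69, and 3.43, 3.31 and 3.36 on SL4, SL8 and SL12. The difference of -0.04 had the narrowest interval among the members, from -0.23 to 0.16 (adjusted p = 0.980 from limma).

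The upper limits of the 95% intervals bound what these arrays leave room for. The highest among the 11 probe sets, that of *coq-1*, corresponds to 1.44 times the NGM level, and the lowest, that of *coq-4*, to 1.12 times. The lower limits reached -0.42, for *hmgs-1*, which corresponds to 0.745 of the NGM level.

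The members differed in how much they varied among worms on the control diet. The SD over the NGM arrays was 0.38 for *hmgs-1* and 0.37 for *coq-1*, above that of 93.9% and 93.8% of all probe sets. The dimmer probe set of *coq-1* had an SD of 0.17, above that of 57.4%. These shares are over all probe sets, bright and dim, not over those of like brightness. For *hmgr-1* it was 0.25, for *fdps-1* 0.24, and for *clk-1* and *coq-2* 0.21. At the other end *coq-6* had an SD of 0.05, *coq-8* of 0.06, *coq-4* of 0.07 and *coq-3* of 0.08, while the median over all probe sets was 0.15. On NGM all 3 mevalonate genes thus lay above that median, and the ubiquinone genes on both sides of it. The brighter probe set of the side chain gene was at the top there. Those for ring modification and the complex, other than *clk-1*, were at the bottom. This order did not hold over the 3 arrays of 13L. Their SD was 0.11 for *hmgs-1*, 0.29 for *hmgr-1* and 0.12 for *fdps-1*. It was 0.16 for *coq-1* (brighter probe set), *coq-6* and *clk-1*, 0.14 for *coq-3*, 0.10 for *coq-2* and *coq-8*, and 0.06 for *coq-4*.

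The mevalonate steps were then compared with ubiquinone synthesis. The median difference between the diets was 0.11 for the mevalonate genes and 0.08 for the ubiquinone genes, beside 0.00097 over all genes. The ubiquinone median minus the mevalonate median was -0.03. On single NGM arrays, the ubiquinone minus the mevalonate median of the deviations from the NGM means had an SD of 0.11 (n = 4). That SD is a spread of single arrays, not an error of the difference between the diets. The middle 50% of all genes lay between -0.09 and 0.09. No test was made of these medians, since the genes were chosen with earlier results of these data known. Without SL1 and SL69, the median of the mevalonate genes was -0.08 and the ubiquinone genes stood above them by 0.18. Without SL4 they stood above them by 0.08.

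By array, the mean deviation of the mevalonate genes from their NGM means was -0.12, 0.24, -0.12 and -0.0049 on SL1, SL5, SL9 and SL69, and 0.18, 0.21 and -0.09 on SL4, SL8 and SL12. That of the ubiquinone genes was -0.10, 0.05, -0.08 and 0.12 on the NGM arrays in the same order, and 0.10, 0.07 and 0.04 on those of 13L. The arrays SL1 and SL9 were thus low for both groups of genes. The ubiquinone mean minus the mevalonate mean was 0.02, -0.19, 0.03 and 0.13 on SL1, SL5, SL9 and SL69, and -0.08, -0.14 and 0.12 on SL4, SL8 and SL12. The mevalonate genes thus stood higher on 1 of the 4 NGM arrays and on 2 of the 3 arrays of 13L, and the ranges of the diets overlapped. On SL1, 0 of the 7 ubiquinone genes lay above their NGM mean, against 5 on SL5, 2 on SL9 and 5 on SL69, and 6, 4 and 3 on SL4, SL8 and SL12. SL1, which had the fewest, also had the lowest sperm marker level, and SL4, which had the most, the next lowest.

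**Figure D3:**
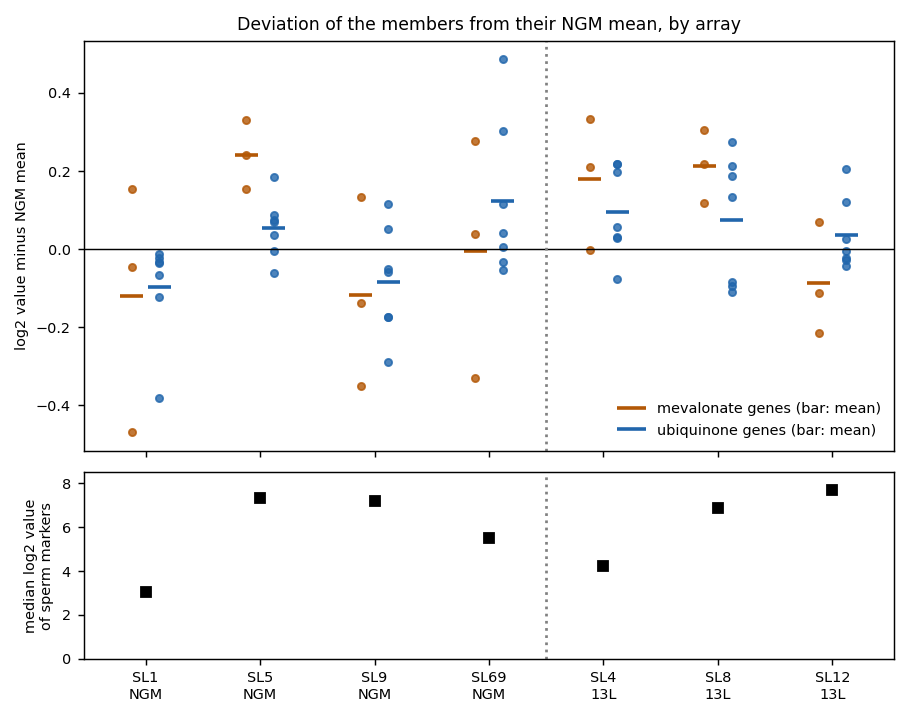
Upper panel, deviation of each member from its NGM mean (y axis, log2 units) by array, with a bar at the mean of the 3 mevalonate genes (orange) and of the 7 ubiquinone genes (blue). Lower panel, median log2 value of 29 sperm markers on the same arrays. SL1 and SL9 lie low for both gene groups, and the sperm markers of SL1 and SL4 are the lowest.

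Runs of title numbers place SL1 beside SL4, SL5 beside SL8 and SL9 beside SL12, although no source says that these runs mark a batch. Within them, 13L lay above NGM in all 3 runs for *fdps-1* (0.06, 0.15 and 0.42), *coq-1* on its brighter probe set (0.41, 0.20 and 0.15) and *coq-8* (0.09, 0.10 and 0.05). These are 3 of the 10 genes, and 13.6% of all genes did the same. The other members had runs in both directions, as *hmgr-1* with 0.38, -0.02 and -0.35. With the runs as blocks, *coq-1* had a difference of 0.25 and an unadjusted p of 0.0429 (adjusted p = 0.621 from limma), on 1 of 11 member probe sets, where 7.88% of all probe sets had an unadjusted p under 0.05. SL69 was alone in its run, so it added nothing to the difference in that fit.

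The other genes of the pathway were taken from lists. None of the genes in these lists passed an adjusted p under 0.05 from limma. At an unadjusted p under 0.05, 4.72% of all genes were called, 1.99% higher and 2.73% lower. Of 8 further genes of the mevalonate and isoprenoid chain, 6 were measured, and 5 had a positive difference (median 0.19). None had an unadjusted p under 0.05 on its brightest probe set. The thiolase gene *kat-1*, whose mitochondrial enzyme joins or splits acetyl-CoA units, had log2 values of 7.37 to 7.72 on NGM and 7.65 to 7.83 in 13L, a difference of 0.22. The related T02G5.7 differed by 0.19 and T02G5.4, which RefSeq lists as a pseudogene, by 0.23. The values of T02G5.4, from 0.76 to 1.18, lay near the array medians. The count and median above include T02G5.4 and *kat-1*, which had the largest differences of the list. The kinase gene *mvk-1*, which acts on mevalonate, had probe sets that opposed each other, with -0.13 on the brighter and 0.30 on the dimmer. The dimmer had an unadjusted p of 0.0481 (adjusted p = 0.944 from limma). The gene was named after its values were seen.

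Among other genes of ubiquinone synthesis, 1 of 5 listed was measured, D2023.6, with a difference of 0.26 (5.02 to 5.51 on NGM, 5.37 to 5.62 in 13L). A further list held genes for ring precursors of quinones, not of ubiquinone alone. Of 6 such genes, 5 were measured and 4 had a positive difference (median 0.07). The negative one was *tatn-1*, at -0.04, named after its values were seen. In this list *kynu-1*, the kynureninase that feeds the ring of rhodoquinone in worms, differed by 0.28. Its log2 values were 5.60 to 6.08 on NGM and 6.07 to 6.38 in 13L, so that the diets overlapped. The monooxygenase gene *kmo-1* differed by 0.10 and the tryptophan dioxygenase gene *tdo-2* by 0.07. None of the 5 measured genes had an unadjusted p under 0.05.

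Further lists held users of isoprenoids. Of 7 measured genes for prenyl transfer and processing, 4 had a positive difference (median 0.04). The farnesyltransferase subunit gene *fntb-1* differed by 0.15, *ggtb-1* by -0.17 and Y48E1B.3 by -0.10. Dimmer probe sets of *ggtb-1* differed by 0.0098 and 0.03, and those of Y48E1B.3 by 0.014 and 0.15, in the opposite direction. The latter of each pair had a mean below the brightest yeast control. Of 13 genes for dolichol-linked glycosylation, 8 had a positive difference (median 0.03), with -0.22 for *algn-9*, 0.18 for *algn-7* and 0.12 for *algn-10*. A dimmer probe set of *algn-10* differed by -0.05. On *algn-9* all arrays of 13L (4.85 to 5.11) lay below those of NGM (5.18 to 5.32), without an unadjusted p under 0.05.

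The enzymes that pass electrons to or from ubiquinone had a median difference of 0.0012, with 7 of 13 positive. Of the 13 genes, 2 had an unadjusted p under 0.05, both with a negative difference. One was *sdha-1*, which encodes the flavoprotein subunit of succinate dehydrogenase. Its log2 values were 4.62, 4.53, 4.60 and 4.83 on the NGM arrays and 4.33, 4.31 and 4.48 on those of 13L, so that the diets did not overlap. By limma the difference was -0.27 (adjusted p = 0.944, unadjusted 0.0251). A dimmer probe set was below the brightest yeast control in both diets, and bears on neither direction. The other was *cyc-1*, the cytochrome c1 gene, with 6.58 to 6.76 on NGM and 6.44 to 6.52 in 13L, also without overlap. Its limma difference was -0.21 (adjusted p = 0.944, unadjusted 0.0408). Its second probe set differed by 0.22 in the opposite direction.

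Of 5 lipid regulators 3 had a positive difference (median 0.08). The gene *scp-1* encodes the homologue of the protein that escorts the sterol regulatory factor SREBP in mammals. It had log2 values of 2.91 to 3.16 on NGM and 2.49 to 2.87 in 13L, with no overlap, and differed by -0.29 (limma, adjusted p = 0.944, unadjusted 0.0358). A dimmer probe set differed by -0.18. Naming the other regulators here followed a look at their values. The Mediator subunit gene *mdt-15* had the largest difference in the 7 related lists, 0.44 (adjusted p = 0.944, unadjusted 0.0589 from limma). Its log2 values were 3.26 to 3.48 on NGM, and 3.21, 4.10 and 4.05 on SL4, SL8 and SL12, so that SL4 lay below all NGM arrays. The receptor gene *nhr-80* differed by 0.24, and *sbp-1*, which encodes the worm SREBP, by 0.08.

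**Figure D4:**
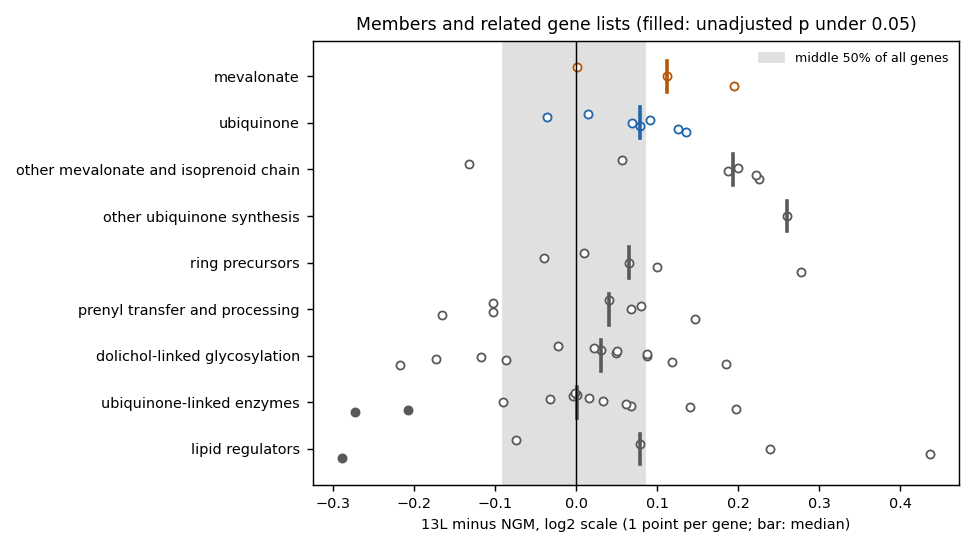
Difference between 13L and NGM (x axis, log2 scale) for each measured gene of the members' 2 groups and of 7 related lists, 1 point per gene on its brightest probe set, with a bar at the list's median and the middle 50% of all genes shaded. Filled points had an unadjusted p under 0.05, which are *sdha-1*, *cyc-1* and *scp-1*, all on the lower side. Over all genes 4.72% had such a p, 1.99% higher and 2.73% lower. A dimmer probe set of *cyc-1*, not shown, differed by 0.22.

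Many worm genes lie close to others and some share a promoter in an operon, so the neighbours of the members within 1000 bases were examined. RefSeq (assembly WBcel235) places 21 genes there, on either strand, and 15 were measured. Of these, 6 had a positive difference, where 50.3% of all genes had one. At an unadjusted p under 0.05 there was 1 of the 15, near the share of 4.72% over all genes. This was *ucp-4*, beside *coq-6*, which encodes a mitochondrial carrier of the uncoupling protein family. The NGM arrays had a mean of 3.79 ± 0.25 (SD, n = 4) and the arrays of 13L one of 4.31 ± 0.06 (SD, n = 3). They did not overlap, and differed by 0.52 (limma, adjusted p = 0.944, unadjusted 0.00403), while *coq-6* itself differed by 0.07. The gene *tos-1*, also beside *coq-6*, differed by -0.19. Beside *coq-4*, the glycolytic gene *pgk-1* had a mean of 7.22 ± 0.014 (SD, n = 4) on NGM. All arrays of 13L lay above it (7.38 ± 0.10, SD, n = 3), by 0.16 on average without an unadjusted p under 0.05, where *coq-4* had -0.04. Beside *clk-1*, *toc-1* differed by 0.42 (standard error 0.23), against 0.01 for *clk-1*.

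On the remaining measured neighbours the diets overlapped. Beside *hmgs-1*, the splicing gene *prp-39* differed by 0.25 and F25B4.4 by -0.10. Beside *hmgr-1*, the acetyltransferase gene *eco-1* differed by -0.04, and beside *fdps-1*, *hda-3* differed by -0.04 and *wve-1* by 0.02. Beside *coq-2*, *byn-1* differed by -0.17, while F57B9.8 and F57B9.3 were below the brightest yeast control in both diets. Beside *coq-3*, *gdi-1* differed by -0.19 and the other measured neighbour by -0.0039, and beside *coq-8*, C35D10.5 differed by -0.11. Of the 15 measured neighbours, none passed an adjusted p under 0.05 from limma.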

How the data were processed

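Total RNA of whole young adults was hybridised to Affymetrix C. elegans Genome Arrays, 1 per sample. RMA background correction and quantile normalization across arrays were done by the authors, who deposited log2 values per probe set. RMA and limma stand without a version in the submitters' processing notes. No source states the offset of this scale. Scanner files were not used. Precision is limited by how few arrays there are.

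Of 22625 probe sets, 77 controls were left out. Of the rest, 20766 had 1 named gene, 887 several and 895 none, and symbols were brought up to date through the RefSeq table (WBcel235). Each gene was represented by its brightest probe set on average. The diets were compared by the two-sided moderated test of limma 3.58.1 (R 4.3.3) without a trend. P-values were adjusted by Benjamini-Hochberg over the 22548 probe sets with a threshold of 0.05. Single member probe sets also had an exact permutation test over arrays. The procedure was tested on simulated data.

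The members and lists were chosen with earlier results of these data known. Named were all member probe sets, the genes of each other list at an unadjusted p under 0.05 or else up to 3 with the largest moderated t, and all measured neighbours. The neighbours were taken on either strand, as the table used gives no strand. Unmatched list genes are not analysed here. Alternatives were each array left out, SL1 and SL69 left out, runs as blocks, limma with trend and robust options, weights per array, cyclic loess, centring on array medians, only the brighter 50% of probe sets, no _s_at or _x_at probe sets and averaging all probe sets of a gene. A sperm marker covariate was added after the data were seen.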

Additional observations from a re-analysis of the deposited data

Results flagged for a closer look

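Among the 4 NGM arrays, 1 array lay far from the other 3 on 3 of the 76 probe sets examined, measured as its gap to the nearest array over the whole range. Chance alone sets apart about 1 in 20 groups. All 3 belong to neighbours of the members. For *prp-39*, beside *hmgs-1*, SL69 had a log2 value of 4.31, where the next lowest NGM array had 4.84 (share of the range 0.843), and without SL69 the difference of 0.25 between the diets was 0.11. For F25B4.4, also beside *hmgs-1*, SL69 had 4.29 and the next array 4.36 (share 0.853). For F57B9.3, beside *coq-2*, which was below the brightest yeast control in both diets, SL1 had 0.19 and the next array 0.37 (share 0.843). No member probe set was set apart in this way.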

How the results depend on the processing

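No probe set passed an adjusted p under 0.05 from limma in any of the 16 alternatives that count them, 2 of which used only part of the probe sets, and the lowest adjusted p of a member was 0.621. No member had an unadjusted p under 0.05, except 1 (*coq-1*) with runs of title numbers as blocks. With single arrays left out, the median difference ranged from 0.0030 to 0.26 for the mevalonate genes and from 0.03 to 0.12 for the ubiquinone genes, and the ubiquinone minus the mevalonate median from -0.14 to 0.077 (without SL4). Without SL1 and SL69, the mevalonate median was -0.076 and that of the ubiquinone genes lay 0.18 above it. Of 167 member differences under the alternatives, 12 changed sign. With single arrays left out, *hmgs-1* ranged from -0.15 (without SL1) to 0.11, with -0.045 without SL9 and -0.057 without SL8. The range of *clk-1* was -0.080 (without SL12) to 0.12, with -0.026 without SL1 and -0.044 without SL9, and that of *coq-1* -0.036 (without SL1) to 0.25. Without SL1 and SL69, *hmgs-1* was -0.094 and *hmgr-1* -0.076. With array weights *clk-1* was -0.0024, with median centring *hmgs-1* was -0.0089, and with the sperm marker covariate, added after the data were seen, it was -0.037. In each case the cause was not tested. Without _s_at and _x_at probe sets, *fdps-1*, *coq-3* and *coq-4* had no value, and the medians over the remaining genes were 0.057 for the mevalonate and 0.079 for the ubiquinone genes, so that their order turned. By replicate number, no paired analysis was possible because the labels hold none that both diets share, and the blocks tried were the runs of title numbers. Over probe sets, deviations from the group means correlated at 0.529, 0.156 and 0.537 within the 3 runs of title numbers.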
